A study of Mus musculus with 8 samples.

Results

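The Polycomb repressive complex 1 (PRC1) and CBX genes described here are 9 of the 55487 genes counted in LT-HSCs of the E14.5 fetal liver: Bmi1, Pcgf2, Ring1, Rnf2, Phc1, Cbx2, Cbx6, Cbx7 and Cbx8. They were chosen by name, as subunits of the canonical complex, and their Ensembl identifiers were matched to the symbols of GENCODE M21 on GRCm38. All 9 passed the filter on low counts, which left 20610 genes.

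LT-HSCs, the hematopoietic stem cells that repopulate a host for the long term, were sorted at 500 cells a sample the Lin- SCA1+ cKIT+ CD48- CD150+ gate. The genotypes were IκBα WT (3 samples), HET (3 samples) and KO (2 samples, a further KO having been discarded for its sequencing quality), from the targeted knockout line Nfkbia tm1Bal, which lacks the NF-κB inhibitor IκBα in every cell and not in LT-HSCs alone. According to the methods, RNA was taken from 3 mice per genotype, and the animals of the study also included a Gfi1:tomato line, whose allele the labels do not give per sample. WT1, WT2 and HET1 carry a male label and total RNA as their molecule, whereas WT3, HET2, HET3 and both KO carry a female label and polyA RNA, so that sex and this label cannot be told apart. The same sets of samples also form separate blocks of the deposit. The methods name a single mRNA ultralow input protocol for the libraries.

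PRC1 is the Polycomb complex that places ubiquitin on histone H2A and compacts chromatin at silenced genes. RING1 or RNF2 supplies the ubiquitin ligase, a PCGF protein such as BMI1 sets the type of complex, a CBX protein reads the H3K27me3 mark that PRC2 writes, and a PHC protein lets complexes assemble into larger bodies. BMI1 is known for its need in hematopoietic stem cell self-renewal, and CBX7 and CBX8 are known as CBX proteins with differing roles in stem cells and progenitors.

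The deleted gene and the cell identity of the samples were examined first. Nfkbia had 45.3, 67.7 and 23.4 CPM (reads on the gene scaled to library size, by the TMM factors) in WT1, WT2 and WT3, and 23.3, 29.0 and 14.4 in HET1, HET2 and HET3. In KO1 a count of 1 and in KO2 a count of 0 was left, less than the 3 reads taken as the floor, and the KO values lay below all others (exact two-sided permutation p = 0.0714, the smallest that 2 samples against 6 allow). Between 17895973 and 21720972 reads per sample fell on genes, and 3 reads corresponded to 0.125 to 0.178 CPM. The samples did not hold the LT-HSC genes alike. The summed level of 8 such genes (Kit, Ly6a, Slamf1, Procr, Mecom, Hlf, Cd34 and Ptprc) ranged from 274 to 1761 CPM in WT, from 204 to 660.4 in HET and from 1014 to 1512 in KO. In HET3, labelled LT-HSC like the rest, Ly6a, the gene of the sorting marker SCA1, was at 0.0 CPM to 1 decimal, Procr at 1.1 and Hlf at 3.0, against 77.2, 165 and 273 in WT2. The summed level of 8 hepatocyte genes, among them Alb and Afp, was highest in WT3 (1483 CPM) and HET3 (753 CPM), and it was 49.8 and 299 CPM in KO1 and KO2. The KO fit, with sex in the model, set the female-labelled KO against WT3, HET2 and HET3. In it, 8 of 8 LT-HSC genes were higher in KO at an unadjusted edgeR p under 0.05, against 15.7% of all genes. Their lowest adjusted p was 0.148. Both KO sums were below those of WT1 (1618 CPM) and WT2 (1761 CPM). In bulk samples, fewer cells of a type and less RNA per cell cannot be told apart. The values for PRC1 genes below are therefore given sample by sample, beside these sums.

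The genes lie on 6 chromosomes of GRCm38, each a protein-coding gene counted over its exons. Bmi1 is at chr2:18677018-18686629 (+ strand), Pcgf2 at chr11:97688823-97700497 (-), Ring1 at chr17:34020792-34024680 (-), Rnf2 at chr1:151458004-151500955 (-) and Phc1 at chr6:122317731-122340561 (-). Cbx2 (chr11:119022962-119031270, +) and Cbx8 (chr11:119036305-119040969, -) are neighbours, as are Cbx6 (chr15:79823896-79834688, -) and Cbx7 (chr15:79915807-79971119, -). Exons of Rnf2 share 158 bases with Trmt1l and those of Cbx7 share 100 bases with Apobec3, both on the opposite strand, and exons of Cbx6 share 563 bases with Npcd on its own strand. Whether strand was used in counting is not given in the sources used here, so reads in those stretches are uncertain.

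The promoters were examined because several of the genes differed among the samples together, while Bmi1 did not. A promoter of 250 bases before the start was held by RefSeq (GRCm38.p6) for 8 of the 9 genes, all but Cbx2. The stretches outside annotated exons are shown for Cbx8 (chr11:119040970-119041163, - strand) and Cbx7 (chr15:79932769-79932896, - strand), which varied widely among samples, for Rnf2 (chr1:151500992-151501241, - strand), the most abundant gene, and for the steady Bmi1 (chr2:18676768-18677017, + strand). Capitals mark GC boxes (GGGCGG) and E-boxes (CACGTG) on either strand.
Cbx8: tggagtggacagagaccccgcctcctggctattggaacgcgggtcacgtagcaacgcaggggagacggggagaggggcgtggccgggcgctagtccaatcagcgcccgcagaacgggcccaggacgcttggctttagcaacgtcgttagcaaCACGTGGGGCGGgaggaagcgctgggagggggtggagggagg
Cbx7: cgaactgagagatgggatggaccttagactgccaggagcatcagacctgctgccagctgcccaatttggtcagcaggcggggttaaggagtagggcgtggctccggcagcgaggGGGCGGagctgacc
Rnf2: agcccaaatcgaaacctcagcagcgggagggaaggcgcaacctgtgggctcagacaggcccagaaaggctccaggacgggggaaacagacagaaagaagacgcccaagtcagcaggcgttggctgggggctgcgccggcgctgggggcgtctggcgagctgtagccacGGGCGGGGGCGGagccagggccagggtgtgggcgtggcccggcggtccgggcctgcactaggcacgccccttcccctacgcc
Bmi1: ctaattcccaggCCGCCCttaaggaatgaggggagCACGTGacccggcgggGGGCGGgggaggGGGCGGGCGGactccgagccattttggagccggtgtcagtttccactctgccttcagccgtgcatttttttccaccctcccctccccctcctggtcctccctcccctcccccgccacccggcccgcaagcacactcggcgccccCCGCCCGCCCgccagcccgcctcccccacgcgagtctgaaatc
In Cbx8 the E-box was directly followed by a GC box. Motifs and CpG were counted over all 250 bases, which lay wholly in annotated exons for Phc1 and Cbx6, and partly for Cbx7 and Cbx8. The GC box was present in 7 of the 8 promoters, against 32.7% of 32851 promoters of the same length, and was absent in Phc1. The E-box was present in 4 of the 8 (Bmi1, Pcgf2, Cbx8 and Cbx6), against 6.02% of all promoters. AGGTCA, the core site of retinoic acid receptors, was present in Pcgf2 alone, where it overlapped the E-box, against 14.0% of all promoters, and the NF-κB motif was present in Ring1 alone, against 7.25%. Of the other motifs searched on both strands, TGACG was present in 4, CCAAT in 2 and TATAAA in 0 of the 8, against 17.8%, 33.9% and 12.4% of all promoters. TGACG can overlap CACGTG. The promoters had a median of 20.5 CpG, against 6 over all promoters, with 5 in Pcgf2 and 30 in Ring1 at the extremes. E-boxes stood in the promoters of steady (Bmi1) and of variable genes (Cbx6, Cbx8) alike.

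To compare the genes with each other, the level was divided by the length of their exons. Rnf2, the ligase subunit also called RING1B, was the most abundant, at 39.3 ± 8.62 CPM per kb (SD, n = 8). Bmi1 followed at 11.4 ± 1.18 CPM per kb, Phc1 at 7.30 ± 3.56 and Cbx8 at 4.22 ± 2.04. Cbx2 (2.78 ± 1.53 CPM per kb) and Ring1 (2.60 ± 0.435 CPM per kb) came next. Cbx6 (1.81 ± 0.754 CPM per kb), Pcgf2 (1.68 ± 0.400 CPM per kb) and Cbx7 (1.16 ± 0.718 CPM per kb) were the least abundant of the genes. Rnf2 exceeded Bmi1, and Bmi1 exceeded Phc1, in 8 of 8 samples, whereas Cbx2 exceeded Ring1 in 4 of 8 and Cbx6 exceeded Pcgf2 in 5 of 8, so that these neighbours were not separated. With the longest transcript as the length, Ring1 moved above Cbx2 and the other ranks were the same.

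**Figure D1:**
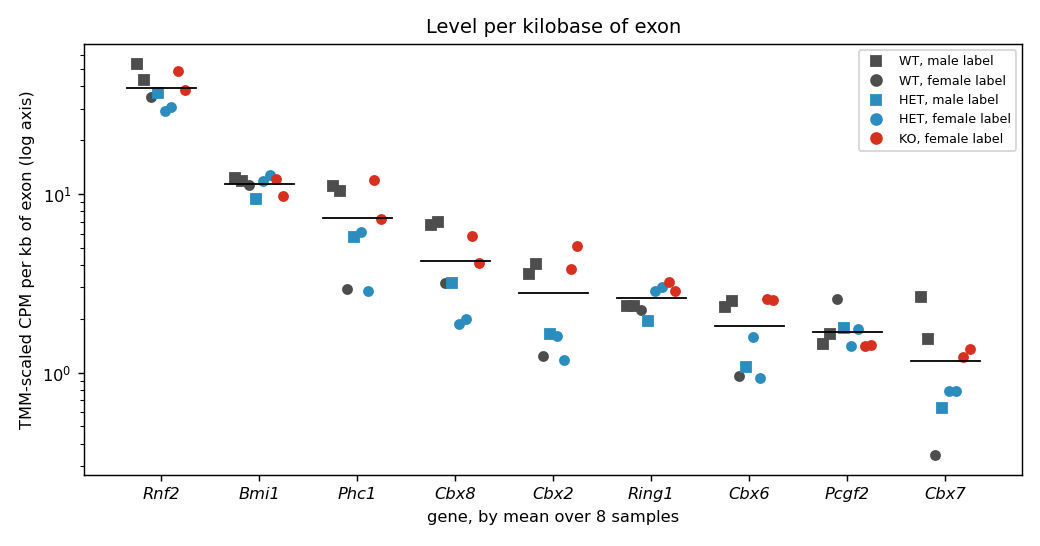
Level of each gene in TMM-scaled CPM per kb of exon on a log axis, with 1 point for each of the 8 samples (squares, male label; circles, female label) and a line at the mean. Rnf2 stands at 28.9 to 53.6 CPM per kb in every sample, above Bmi1 at 9.42 to 12.7, and the spread among samples is wider for Phc1 and the CBX genes than for Bmi1.

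Within each sample the ratio of the paralogs was also compared, since members of a pair take the same place in the complex. Rnf2 was 10.2 to 22.7 times as abundant as Ring1 per kb of exon, and Bmi1 was 4.31 to 8.60 times as abundant as Pcgf2, the gene of MEL18. In both KO samples the Rnf2 to Ring1 ratio (15.2 and 13.3) and the Bmi1 to Pcgf2 ratio (8.60 and 6.81) lay within or at the edge of the range of the other samples (10.2 to 22.7, and 4.31 to 8.50). KO1 had the highest Bmi1 to Pcgf2 ratio of the samples.

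The ligase and PCGF subunits varied least. Bmi1 had 48.9, 46.8 and 44.5 CPM in WT, 37.4, 46.8 and 50.4 in HET, and 47.9 and 38.8 in KO. The groups overlapped, and the levels spread over 1.35-fold from lowest to highest. Pcgf2 had 5.10, 5.81 and 9.17 CPM in WT, 6.28, 4.99 and 6.17 in HET, and 4.94 and 5.07 in KO. WT3 alone was high, and the KO values were among the lowest. Ring1 had 7.67, 7.69 and 7.29 CPM in WT, 6.28, 9.23 and 9.73 in HET, and 10.4 and 9.29 in KO. HET3 lay between both KO samples. Rnf2 had 221, 179 and 145 CPM in WT, 151, 119 and 126 in HET, and 200 and 157 in KO. Its lowest values were those of HET2 and HET3, and both KO samples lay between HET1 and WT1.

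Phc1 and the CBX genes varied more. Phc1, the polyhomeotic subunit, had 58.6, 54.9 and 15.5 CPM in WT, 30.5, 32.5 and 15.1 in HET, and 63.7 and 38.3 in KO. KO1, WT1 and WT2 were high, and WT3 and HET3 were low. Cbx2 had 15.2, 17.2 and 5.26 CPM in WT, 7.02, 6.86 and 5.04 in HET, and 16.2 and 21.8 in KO. Both KO values were like those of WT1 and WT2 and well above the other four. Cbx6 had 24.8, 26.7 and 10.2 CPM in WT, 11.4, 16.7 and 9.91 in HET, and 27.3 and 27.0 in KO. The KO values just exceeded WT2 and did not overlap with any other sample. Cbx7 had 17.1, 10.1 and 2.24 CPM in WT, 4.09, 5.10 and 5.10 in HET, and 7.93 and 8.75 in KO. WT1 was the highest and WT3 the lowest, 7.65-fold apart, with both KO between WT2 and the HET samples. Cbx8 had 24.8, 25.6 and 11.6 CPM in WT, 11.6, 6.86 and 7.36 in HET, and 21.3 and 15.0 in KO. Every HET sample was below every WT sample, by the least margin for HET1 (11.59) against WT3 (11.61), and WT1 and WT2 were above both KO. Between 43 (Cbx7 in WT3) and 4730 reads (Rnf2 in WT1) lay behind these levels, all above the floor of 3 reads.

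**Figure D2:**
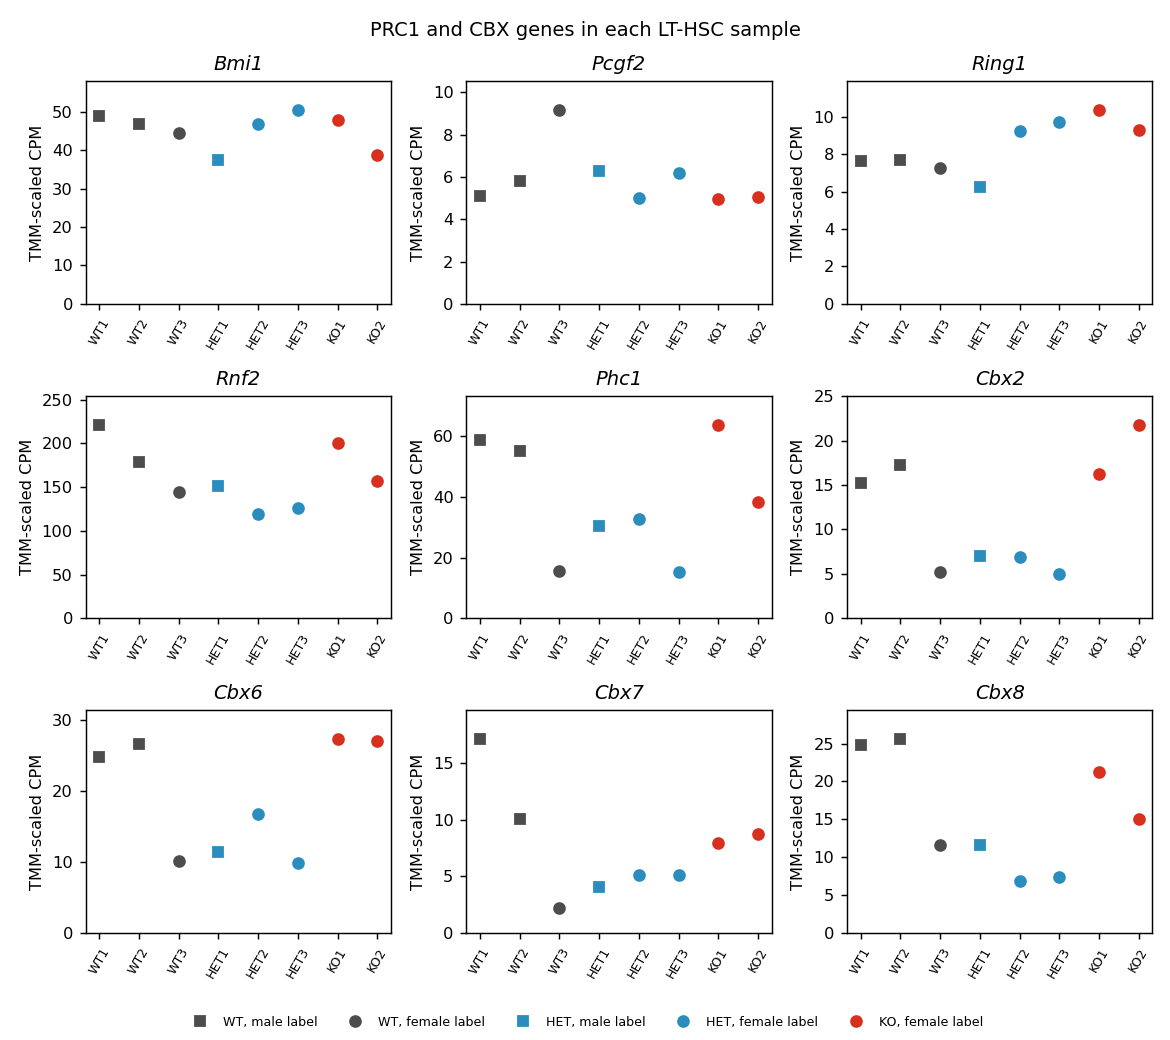
TMM-scaled CPM of each of the 9 genes, on axes that start at 0, with 1 point for each sample (squares, male label; circles, female label). Bmi1 is level across samples, whereas Cbx2 is at 15.2 to 21.8 CPM in WT1, WT2, KO1 and KO2 and at 5.04 to 7.02 CPM in WT3, HET1, HET2 and HET3.

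The effect of IκBα loss was asked by comparing KO with WT and HET pooled, with sex in the model. Because both KO carry the female label, this fit sets KO against WT3, HET2 and HET3, and the male-labelled samples enter through the spread. Cbx2, Phc1, Cbx6 and Cbx8 had higher values in KO than in these samples at an unadjusted p under 0.05, without passing the adjusted threshold, and the other genes did not reach that p. The log2 fold changes (± SE, quasi-likelihood test of edgeR) were 1.73 ± 0.40 for Cbx2, 1.27 ± 0.42 for Phc1, 1.14 ± 0.39 for Cbx6 and 1.07 ± 0.40 for Cbx8. Their unadjusted p from edgeR was 0.0024, 0.0156, 0.0186 and 0.0277, in that order. They were 1.01 ± 0.60 for Cbx7, 0.46 ± 0.20 for Rnf2, 0.17 ± 0.30 for Ring1, -0.12 ± 0.19 for Bmi1 and -0.44 ± 0.39 for Pcgf2, each with an unadjusted edgeR p over 0.05. As ratios of mean CPM, KO stood at 3.32 times the female-labelled WT and HET samples for Cbx2, 2.42 for Phc1, 2.21 for Cbx6, 2.11 for Cbx8, 2.01 for Cbx7 and 1.37 for Rnf2. Against the male-labelled WT1 and WT2, the same ratios were 1.17, 0.897, 1.05, 0.721, 0.613 and 0.892. These ratios leave out HET1, which is also male-labelled. With HET1 included, the male-labelled mean CPM was 13.1, 48.0, 20.9, 20.6, 10.4 and 184 in the same order. The KO means were 19.0, 51.0, 27.1, 18.1, 8.34 and 179.

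No gene of the 9 passed the threshold set for calls (edgeR adjusted p under 0.05, log2 fold change beyond 1 in either direction), and 0 of the 20610 genes tested did (0%). The adjusted p of edgeR ranged from 0.148 for Cbx2 to 0.750 for Ring1. At an unadjusted edgeR p under 0.05, 4 of the 9 were higher and 0 lower, against 15.7% of all genes higher and 9.48% lower, and the median log2 fold change of the 9 was 1.01 against 0.13 for all genes. Scaled by library size alone, 4581 genes were higher and 956 lower at that p, against 3242 and 1954 with TMM and 2831 and 2601 with the upper quartile. By library size alone 5 of the 9 were higher, and the log2 fold change of Bmi1 turned to 0.17. With DESeq2 and apeglm, 1 of the 9 passed that threshold, Cbx2 (shrunken log2 fold change 1.47, adjusted p = 0.00623), against 7.18% of the genes tested. Without shrinkage DESeq2 called Phc1 as well (1.24, adjusted p = 0.0479).

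Several libraries decided these counts. Without the sex term 0 of the 9 had an unadjusted edgeR p under 0.05, against 2% of all genes, and the log2 fold change of Cbx2 was 1.01 and that of Cbx8 was 0.31. The count of 4 became 1 without HET3 and 2 without WT3, while all genes higher at that p fell from 3242 to 2284 and 2136. Without WT3 and HET3 together, an alternative chosen after seeing the data, the count was 0, against 838 of all genes higher. This fit leaves HET2 as the only female-labelled reference. In it the log2 fold changes were 1.44 for Cbx2 (edgeR adjusted p = 0.682), 1.37 for Cbx8, 0.62 for Phc1 and 0.67 for Cbx6. Without KO1, which leaves 1 KO sample, they were 1.93 for Cbx2, 0.80 for Cbx8, 0.86 for Phc1 and 1.14 for Cbx6. Both KO samples exceeded all 6 others for 1 of the 9 (Cbx6), against 3.05% of the 20610 genes, and lay below all 6 for 0, against 1.79%. They exceeded the 3 female-labelled WT and HET samples for 6 of the 9 (Rnf2, Phc1, Cbx2, Cbx6, Cbx7 and Cbx8), against 27.1%. The exact two-sided permutation p over all 8 samples was 0.0714 for Cbx6, the smallest possible, 0.143 for Cbx2, 0.286 for Phc1 and 0.429 for Cbx8. In the log2 values that the authors corrected for sex, both KO exceeded all 6 others for 3 of the 9 (Phc1, Cbx2 and Cbx6), against 19.3% of the genes. The summed level of the LT-HSC genes was 204 to 526 CPM in WT3, HET2 and HET3 and 1512 and 1014 CPM in KO1 and KO2. The summed level of 8 endothelial genes was 34.7 to 96.4 CPM in the same references and 279 and 174 CPM in KO1 and KO2, and 4 of the 8 were higher at an unadjusted edgeR p under 0.05. At that p, 2 of 6 megakaryocyte genes and 2 of the 5 B and T cell genes tested were higher. Among neutrophil and monocyte genes 1 of 8 was lower, and 0 of 8 erythroid, macrophage or hepatocyte genes passed. Of all genes, 15.7% were higher and 9.48% lower at that p. The part of these marker genes in the difference was not tested.

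**Figure D3:**
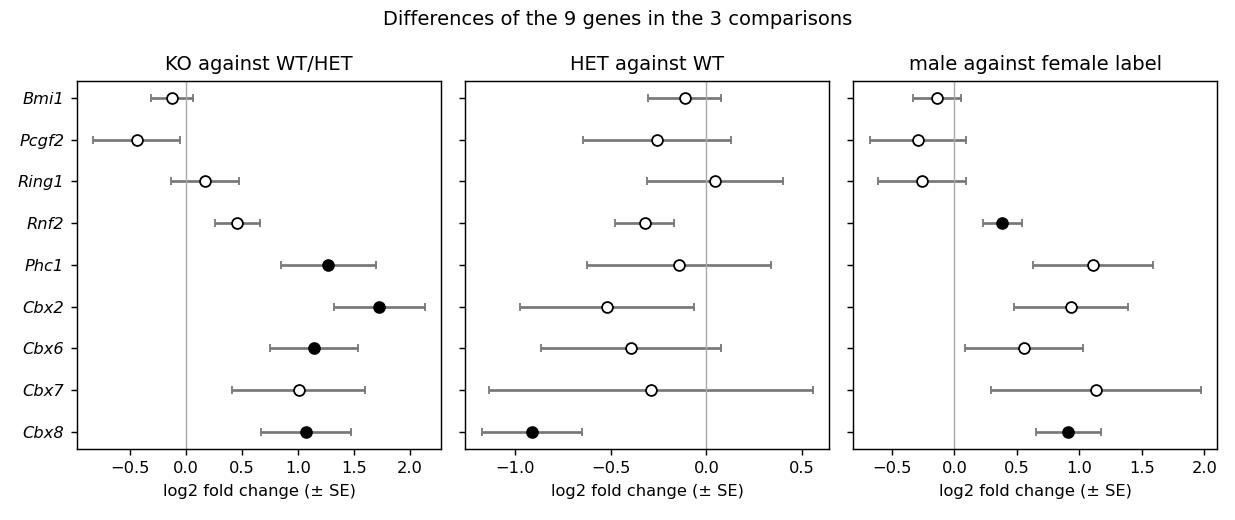
Log2 fold change (points) and SE (bars) of each gene in the 3 comparisons, from edgeR with sex and genotype in the model, with filled points for an unadjusted p under 0.05. Cbx2, Phc1, Cbx6 and Cbx8 are filled in KO against WT/HET, at 1.07 to 1.73, Cbx8 alone in HET against WT, and Cbx8 and Rnf2 in male against female label.

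The question of a dose effect was addressed with HET against WT over these 6 samples. Cbx8, one of the CBX readers of H3K27me3, was lower in HET, by a log2 fold change of -0.91 ± 0.26 (edgeR, unadjusted p = 0.0116, adjusted p = 0.931). No value of the 2 groups overlapped (exact two-sided permutation p = 0.1, the smallest possible). Any gene whose 3 HET and 3 WT samples separate reaches this p, and the share of all genes that did so was not counted. Cbx8 was 1 of the 9 at an unadjusted edgeR p under 0.05, with 0 higher, against 1.83% of the genes tested lower and 1.80% higher. The WT and HET samples of the same number deviated together, and with the replicate number as a block Cbx8 was at -0.88 ± 0.36 (edgeR, unadjusted p = 0.0529) and 0 of the 9 remained. Without HET1 the count was 0, and without WT3 it was 4. Of all genes tested, 376 were lower at an unadjusted edgeR p under 0.05 in the first fit. This number was 904 with the block, 276 without HET1 and 935 without WT3. The other 8 genes had log2 fold changes between -0.52 (Cbx2) and 0.04 (Ring1). Each of the 8 erythroid marker genes was higher in HET at an unadjusted edgeR p under 0.05, with an adjusted p of 0.931. Their summed level was 1235 to 3404 CPM in WT, and 14786, 5721 and 3859 CPM in HET1, HET2 and HET3. In KO1 and KO2 it was 767 and 3186 CPM. Single genes could overlap, as Hba-a1 did in HET3 (319 CPM) and WT3 (353 CPM). The part of the erythroid genes in the Cbx8 difference was not tested.

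The male-labelled samples (WT1, WT2, HET1) were compared with the female-labelled ones (WT3, HET2, HET3), since the KO comparison rests on this term. Cbx8 (0.91 ± 0.26, edgeR unadjusted p = 0.0117) and Rnf2 (0.38 ± 0.16, edgeR unadjusted p = 0.0464) were higher under the male label, 2 of the 9, with 0 lower, against 10.7% of all genes higher and 12% lower. With the replicate block 0 of the 9 had a p under 0.05, without HET1 5, without HET2 4 and without WT3 0. Over all genes tested, the 4669 at that p became 297, 5900, 7271 and 1087 in the same fits. Without WT1, WT2 or HET3 the count was 1, against 2301, 2239 and 3162 of all genes tested. The log2 fold changes of Phc1 (1.11 ± 0.48), Cbx7 (1.13 ± 0.84), Cbx2 (0.93 ± 0.45) and Cbx6 (0.56 ± 0.47) were positive and had an unadjusted edgeR p over 0.05. HET1, which carries the male label, had LT-HSC and CBX levels nearer to HET2 than to WT1 and WT2.

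Cbx2, Cbx6, Cbx7 and Cbx8, whose proteins carry a Polycomb chromodomain, were also summed per kb of exon. The sum was 15.3, 15.1 and 5.70 CPM per kb in WT, 6.51, 5.84 and 4.91 in HET, and 13.4 and 13.1 in KO. WT1, WT2 and both KO were high, and WT3 and the 3 HET were low. Cbx8 held 31.2% to 55.5% of the sum, Cbx2 21.7% to 39.1%, Cbx6 15.3% to 27.0% and Cbx7 6.06% to 17.3%. KO2 had the largest share of Cbx2 (39.1%), and KO1 was second (28.4%). Relative to Bmi1 and Pcgf2 together, the CBX sum was 1.11, 1.12 and 0.413 in WT, 0.581, 0.443 and 0.340 in HET, and 0.995 and 1.17 in KO. This ratio, which leaves out the other PCGF genes, differed among samples of the same genotype.

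**Figure D4:**
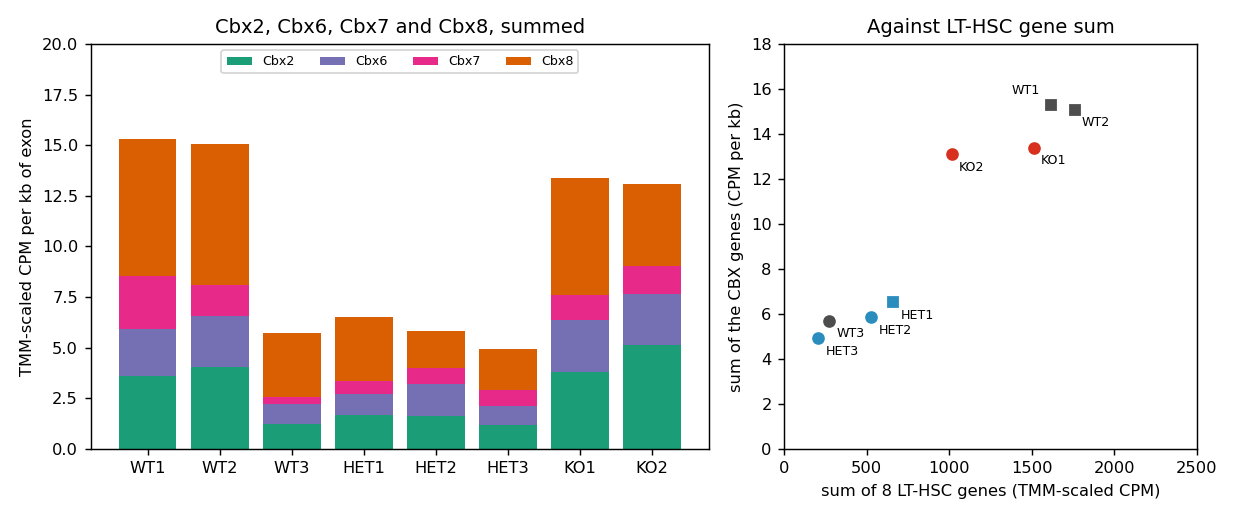
Left, bars from 0 with the summed level of Cbx2, Cbx6, Cbx7 and Cbx8 in each sample, in TMM-scaled CPM per kb of exon. Right, the same sum against the summed CPM of the 8 LT-HSC genes, where the 4 samples with a CBX sum of 13.1 to 15.3 have an LT-HSC sum of 1014 to 1761 and the 4 at 4.91 to 6.51 have 204 to 660.4.

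The gene with the most similar pattern over the 8 samples (Pearson's r of log2 CPM, among 10098 genes with a mean of at least 5 CPM) was Homer3 for Phc1 (r = 0.997), Rragb for Cbx8 (r = 0.997), Pak4 for Cbx6 (r = 0.990), Zc3h10 for Cbx2 (r = 0.987), Hif1a for Rnf2 (r = 0.981) and Gm46430 for Cbx7 (r = 0.979). It was Hddc3 for Bmi1 (r = 0.946), Mtpn for Pcgf2 (r = 0.933) and Acin1 for Ring1 (r = 0.914). The points share their library, depth and cell composition. For Phc1, 1673 genes had r over 0.9, for Cbx6 504 and for Cbx8 441, whereas for Bmi1 and Pcgf2 5 did and for Ring1 2.

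The rest of the Polycomb system was then described. Of 5 further canonical PRC1 subunits, 3 were higher in KO at an unadjusted edgeR p under 0.05 and 0 lower, against 15.7% and 9.48% of all genes: Scml2 (log2 fold change 1.12 ± 0.36), Scml4 (3.496 ± 1.18) and Scmh1 (0.77 ± 0.25). The last was named after its values were seen. Phc2 (0.05) and Phc3 (0.27), paralogs of Phc1 given to complete the list, had an unadjusted edgeR p over 0.05. The median of this list was 0.77, against 0.13 for all genes. Scml4 was at 0.21 CPM in WT3 and 0.06 in HET3, against 6.32 in WT1 and 7.90 in WT2, and its KO values were 10.4 and 3.25.

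Of 20 genes of variant PRC1, the complexes that lack a CBX reader, 3 were higher and 3 lower at an unadjusted edgeR p under 0.05, near the shares of all genes (15.7% higher and 9.48% lower), with a median log2 fold change of 0.03. Auts2 (1.55 ± 0.62), of a variant complex known for gene activation in neurons, and Fbrs (1.02 ± 0.30) were higher by more than 1. Those lower, named after their values were seen, were Pcgf6 (-0.99), Yaf2 (-0.38) and Usp7 (-0.56), and the third higher was Bcor (0.44). Of 8 genes that remove or regulate ubiquitin on H2A, 2 were higher (Usp21, 0.66, and Mysm1, 0.48) and 1 lower (Usp16, -0.88) at that p, also named after their values were seen. These counts too are read against 15.7% and 9.48% of all genes. The 3 HP1 chromobox genes (Cbx1, Cbx3, Cbx5), which share the chromodomain but read H3K9 methylation, lay between -0.30 and -0.08, and 0 of 3 had a p under 0.05. Of 6 PRC2 core genes, 0 were higher and 2 lower (Ezh2, -0.40, and Eed, -0.47, named after their values were seen), with a median of -0.34. These fold changes too set KO against WT3, HET2 and HET3. Ezh2 had 149 and 151 CPM in WT1 and WT2 and 155 and 157 in KO1 and KO2. In the same order, Eed had 137, 127, 131 and 149 CPM. No gene of the lists in this paragraph passed the adjusted threshold of edgeR, the lowest adjusted p being 0.148.

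**Figure D5:**
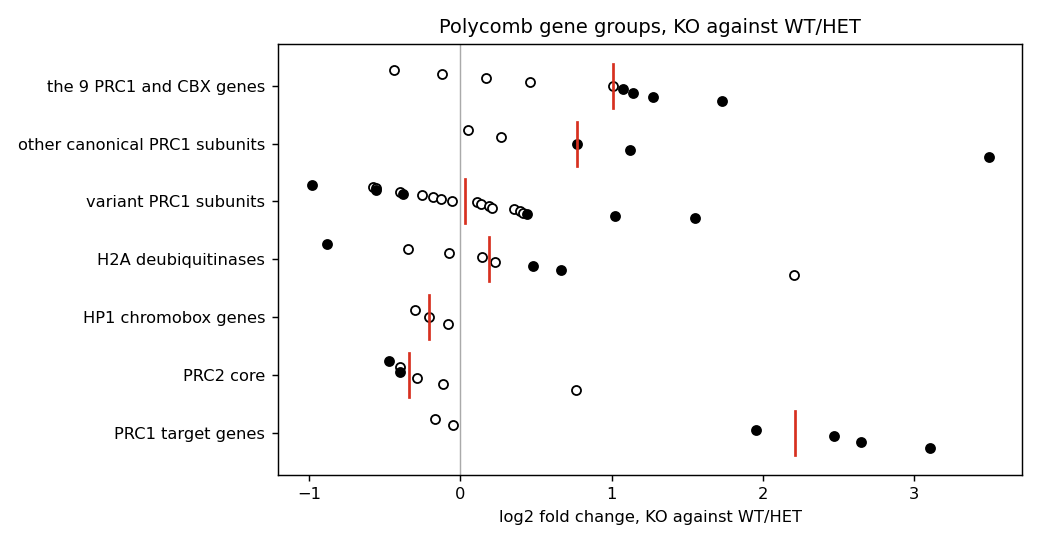
Log2 fold change in KO against WT/HET (edgeR, sex in the model) of each gene tested in the Polycomb lists, with filled points for an unadjusted p under 0.05 and a red line at the list's median. The medians are 1.01 for the 9 genes, 0.77 for the other canonical PRC1 subunits, 0.03 for variant PRC1, and -0.34 for the PRC2 core.

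Genes that PRC1 is known to silence were read last. Cdkn2a, the classical BMI1 target that encodes p16 and p19, had 0 reads in all 8 samples, which allows up to 0.125 to 0.178 CPM at this depth, and Cdkn2b, Hoxc13 and Pax5 had 6, 1 and 3 reads in total and were not tested. Of the 6 tested, 4 were higher and 0 lower in KO at an unadjusted edgeR p under 0.05, against 15.7% and 9.48% of all genes (the developmental regulators Hoxa9, 2.47 ± 0.93, Hoxa10, 2.65 ± 0.94, Hoxb4, 1.95 ± 0.69, and Gata3, 3.11 ± 0.89), and the other two, given to complete the list, were the cell cycle inhibitor Cdkn1a (-0.05) and the B cell factor Ebf1 (-0.17). Hoxa9, a gene also known as an LT-HSC and progenitor factor, had 142, 151 and 11.2 CPM in WT, 58.4, 40.3 and 1.96 in HET, and 126 and 72.0 in KO. It was high and low in the same samples as Phc1. The fold changes of these 4 genes set KO against WT3, HET2 and HET3, and both KO lay below WT1 and WT2 for each of the 4. The share of all genes with both KO below WT1 and WT2 was not counted. Hoxa10 had 44.2 and 39.7 CPM in WT1 and WT2 and 36.3 and 22.8 in KO1 and KO2. In the same order, Hoxb4 had 3.88, 5.01, 3.77 and 1.57 CPM, and Gata3 had 15.9, 16.1, 9.74 and 11.8. No target gene passed the adjusted threshold.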

How the data were processed

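The RNA-seq of 8 samples of sorted LT-HSCs was used. The authors trimmed reads with Trim Galore 0.6.6, aligned them to GRCm38 with STAR 2.7.8 and deposited raw counts of uniquely mapped reads per Ensembl gene. The authors also deposited log2 values made by the variance-stabilizing transformation of DESeq2 1.38.3 and corrected for sex, which removes differences that coincide with the label. Of 55487 identifiers, 55227 had a GENCODE M21 symbol. Genes with under 10 reads over 8 samples were left out. Raw counts entered edgeR 4.0.16 and its quasi-likelihood test (R 4.3.3, TMM, legacy form, sex and genotype in the model, Benjamini-Hochberg adjustment), and with DESeq2 1.42.0 and apeglm 1.24.0 as the alternative. Log2 CPM used a prior count of 2. The tests were tried on simulated data. Floors cover counting error only, whereas each ± value (SD or SE) also holds the spread among samples.

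The 9 genes and all gene lists were chosen with earlier results of these data known, and 2 genes of these lists are not reported here. All 9 were described. A listed gene was named where its unadjusted p was under 0.05 and its absolute log2 fold change over 1 in the KO comparison, or where a defining gene had 0 reads, and listed genes outside this rule were named after their values were seen. The most similar gene was that with the highest r among genes with a mean of at least 5 CPM. Samples of the same label number deviated together for WT and HET (correlations of the deviations from group means 0.29, 0.20 and 0.59 for numbers 1, 2 and 3), whereas for KO they were positive for number 1 (WT1 with KO1 0.28, HET1 with KO1 0.24) and negative for number 2 (WT2 with KO2 -0.35, HET2 with KO2 -0.12). Numbers 1 are both male-labelled and numbers 3 both female-labelled. The alternatives were other normalizations, filters, tools, references and covariates, and each sample left out. No 2 samples of a group agreed within sampling noise (chi-square per gene 18.9 to 261).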

Additional observations from a re-analysis of the deposited data

Results flagged for a closer look

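Pcgf2 in WT3 was at 9.17 CPM, far from the other 5 WT and HET samples, which lay between 4.99 and 6.28 CPM. Its gap to the nearest of them was barely above the critical share of the range of the 6 samples on the log2 scale (Dixon). The 9 genes were all examined this way, and about 1 in 20 such groups is marked by chance. WT3 was also the sample with the highest sum of hepatocyte genes (1483 CPM), whose part in this value was not tested.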

How the results depend on the processing

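The KO log2 fold changes of Cbx2, Cbx6, Cbx7, Cbx8, Phc1, Rnf2 and Ring1 were positive under all 22 alternatives run. They were 1.01 to 1.99 for Cbx2 and 0.56 to 1.74 for Phc1. Most alternatives again set KO against WT3, HET2 and HET3 or part of them, so the shared sign is not separate support. Against WT1 and WT2, with the male-labelled HET1 left out, the ratios of mean CPM were 0.613 for Cbx7, 0.721 for Cbx8, 0.892 for Rnf2 and 0.897 for Phc1. They were 1.05 for Cbx6, 1.17 for Cbx2 and 1.28 for Ring1. Of the 9 genes, 4 had an unadjusted edgeR p under 0.05 in KO against WT/HET. Without the sex term and without WT3 and HET3 together there were 0, against 412 and 1048 of all genes tested. With the replicate block there was 1, against 589, and with each WT or HET sample left out 1 to 5, against 3219 to 6113. DESeq2 with apeglm called 1 (Cbx2, 1.47), DESeq2 without shrinkage called Cbx2 (1.70) and Phc1 (1.24), and edgeR without a filter called Cbx2 (1.73). Bmi1 turned to 0.169 with library sizes alone and ranged from -0.28 to 0.020 with each sample left out, and Pcgf2 turned to 0.019 with the replicate block. The number 1 samples deviated with KO1 (correlations 0.28 and 0.24) and the number 2 samples against KO2 (-0.35 and -0.12), so the numbers were not taken to pair KO. For HET against WT, the 1 gene (Cbx8) became 2 with library sizes alone, 0 with the replicate block and 0 to 4 with each sample left out. Over all genes tested, the 747 at that p became 743, 1073 and 271 to 2924, in that order. For male against female label, the 2 genes became 4 with DESeq2, 1 with RLE size factors and 5 over all 8 samples. They became 0 with the replicate block and 0 to 5 with each sample left out. Over all genes tested, the 4669 at that p became 5783, 4741, 6679, 297 and 1087 to 7271, in that order. Over the longest transcript, the level per kb was 50.7 for Rnf2, 12.6 for Bmi1, 3.31 for Ring1 and 2.39 for Pcgf2. Over all genes tested, edgeR called 0 in KO against WT/HET, with 5196 at an unadjusted p under 0.05, DESeq2 with apeglm called 1476 and without shrinkage 1855, and edgeR called 1106 without a filter, 662 with WT alone as the reference and 0 to 730 with each sample left out. With WT alone as the reference, WT3 was the only female-labelled reference sample. Library sizes alone moved the median log2 fold change of all genes from 0.13 to 0.41. The cause of these shifts was not tested. With 2 KO samples, permutation cannot give a p under 0.0714.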
